A study of Mus musculus with 16 samples.

Results

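The 9 genes described here encode enzymes that use up NAD+ or take apart the ADP-ribose chains made from it. They are the poly(ADP-ribose) polymerases *Parp1*, *Parp2* and *Parp3*, the tankyrases *Tnks* and *Tnks2*, the glycohydrolase *Parg*, and the NAD hydrolases *Cd38*, *Bst1* and *Sarm1*. Their probes were found through the transcript accession that each microarray probe carries. They make up 9 of the 22911 named genes on the array, and 14 probes measure them. Of these probes, 12 were bright enough to be tested, and they cover 8 of the 9 genes. The probe of *Bst1* and 1 of the 3 probes of *Parp3* were not.

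Poly(ADP-ribose) polymerases split NAD+ into nicotinamide and ADP-ribose and link the ADP-ribose to proteins, often as chains, and DNA breaks switch on PARP1, PARP2 and PARP3. PARG cuts the chains back, while CD38, BST1 and SARM1 cleave NAD+ itself, in part to cyclic ADP-ribose. ATM is the kinase that responds to DNA double-strand breaks, its loss causes ataxia-telangiectasia with degeneration of the cerebellum, and nicotinamide riboside (NR) is a precursor from which cells make NAD+.

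RNA of the cerebellar cortex of 16 mice was hybridised to 16 Agilent arrays of 1 colour, 4 arrays for each of 4 groups. All mice came from the strain B6;129S4-Atmtm1Bal/J, were labelled male and were 3.5 months old. WT mice were littermates of the *Atm*-/- mice, which carry the targeted *Atm* allele in the germline on both chromosomes. The groups WT NR and *Atm*-/- NR drank water with 3.5 mg/ml (12 mM) NR for 2 months, from 6 weeks of age. The groups WT veh and *Atm*-/- veh drank water alone.

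Several features of the arrays touch the results. Of 2 *Atm* probes, 1 was lower on every *Atm*-/- array (log2 signal 7.72 to 8.08) than on every WT array (8.52 to 9.03), and the other overlapped between genotypes; where they lie relative to the targeted allele is not given in the sources used here. Y-linked genes were not well above background on 4 arrays, against the label male: *Atm*-/- NR 4, *Atm*-/- veh 3, WT NR 4 and WT NR 1. *Xist*, a transcript of female cells, was well above background on these 4 arrays and on none of the other 12. The groups were uneven in this, with 0 such arrays in WT veh, 2 in WT NR and 1 in each *Atm*-/- group. WT arrays lay on 1 slide and *Atm*-/- arrays on another, so slide cannot be told apart from genotype, and on both slides veh arrays filled row 1 and NR arrays row 2, so row and NR cannot be told apart either. All 7 Purkinje cell markers and all 7 granule cell markers were well above background on all 16 arrays. WT veh 4 stood apart in 5 choroid plexus markers, with a mean log2 signal 4.85 above their average, against -1.38 to 0.92 on the other arrays. *Atm*-/- veh 3 had the highest signal of *Alas2*, an erythroid gene picked after its values were seen (13.13, against 9.31 to 10.26 elsewhere). In such tissue samples, fewer cells of a type and less RNA per cell cannot be told apart.

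*Parp3* and *Tnks* were the 2 genes whose brightest probe was called lower with NR in *Atm*-/- mice, while 5 others had a lower mean that did not pass the test. The fall was 1.33-fold for *Parp3* and 1.44-fold for *Tnks*. In WT mice neither passed the test, and between genotypes no gene of the 8 did. Over all probes, 9.04% were called with NR in *Atm*-/- mice and 0% with NR in WT mice. Between genotypes 0.0537% were called without NR, and 0.0537% with NR. A difference between genotypes in the response to NR was not shown for *Parp3* or *Tnks* (adjusted p = 0.839 in limma for each). A dimmer tested probe of *Parp3* and of *Tnks* was not called with NR in *Atm*-/- mice, and that of *Tnks* had a higher mean with NR. Signals are given below as quantile-normalized log2 intensities, so that a difference of 1 is a doubling. A gene is represented by its brightest probe unless another is named, and levels are compared between groups only, since probes differ in how well they bind. Tests were made with limma over 37253 probes, with Benjamini-Hochberg adjustment, and a probe counts as called where its adjusted p was under 0.05.

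*Parp1* encodes the main responder to DNA strand breaks and the largest user of NAD+ in damaged cells. Its log2 signal was 10.93, 11.18, 11.25 and 11.15 on the 4 WT veh arrays and 11.15, 10.68, 10.89 and 10.93 on the WT NR arrays. On the *Atm*-/- veh arrays it was 11.38, 11.13, 11.30 and 11.52, and on the *Atm*-/- NR arrays 10.97, 11.47, 10.98 and 10.98. The groups overlapped in every comparison, and *Atm*-/- NR 2 lay among the *Atm*-/- veh arrays while the other 3 *Atm*-/- NR arrays lay below those. The difference of *Atm*-/- veh against WT veh was 0.21 (95% interval -0.08 to 0.49, adjusted p = 0.485), and that of *Atm*-/- NR against WT NR was 0.19 (-0.10 to 0.47, adjusted p = 0.9997). NR against veh gave -0.21 in WT mice (-0.50 to 0.07, adjusted p = 0.757) and -0.23 in *Atm*-/- mice (-0.52 to 0.05, adjusted p = 0.271). Averaged over both genotypes, the NR difference was -0.22 (-0.43 to -0.02), with an unadjusted p of 0.0317 in limma and an adjusted p of 0.140.

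*Parp2* encodes the second polymerase that answers to breaks. WT veh 1 stood far below the other arrays, at 8.54, while the other 3 WT veh arrays read 9.98, 10.01 and 9.65. The WT NR arrays ran from 9.66 to 9.74, the *Atm*-/- veh arrays from 9.84 to 9.999 and the *Atm*-/- NR arrays from 9.68 to 9.85. *Parp2* had the widest intervals of the 8 genes. *Atm*-/- veh against WT veh gave 0.38 (-0.12 to 0.89, adjusted p = 0.470), and WT NR against WT veh gave 0.15 (-0.35 to 0.66, adjusted p = 0.928). Without WT veh 1 these became 0.045 (adjusted p = 0.865) and -0.18 (adjusted p = 0.718). *Atm*-/- NR against *Atm*-/- veh gave -0.16 (-0.67 to 0.34, adjusted p = 0.693). On the other *Parp2* probe WT veh 1 did not stand apart (9.44, with 9.48, 9.28 and 8.86 on the other WT veh arrays), and the same comparison gave -0.17 (-0.43 to 0.10, adjusted p = 0.406).

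*Parp3* encodes a smaller relative that marks double-strand breaks for repair. On the probe A_52_P480425 its log2 signal was 8.22, 8.46, 8.35 and 8.26 on the WT veh arrays and 8.17, 8.07, 8.11 and 8.14 on the WT NR arrays. It was 8.68, 8.60, 8.81 and 8.65 on the *Atm*-/- veh arrays and 8.44, 8.34, 8.08 and 8.25 on the *Atm*-/- NR arrays. All 4 *Atm*-/- veh arrays lay above all 12 others, the WT NR arrays lay below both veh groups, and the *Atm*-/- NR arrays overlapped both WT groups.

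The fall of *Parp3* with NR in *Atm*-/- mice was -0.41 (SE 0.085, 95% interval -0.59 to -0.23, adjusted p = 0.0143), and averaged over both genotypes the NR difference was -0.30 (SE 0.060, adjusted p = 0.00992). In WT mice NR against veh gave -0.20 (SE 0.085, unadjusted p = 0.0326, adjusted p = 0.621). The NR differences of the genotypes differed by -0.21 (-0.47 to 0.05, adjusted p = 0.839), so a difference between genotypes in the response was not shown. *Atm*-/- veh against WT veh gave 0.36 (SE 0.085), a difference of 1.28-fold with no overlap, which did not pass after adjustment (unadjusted p = 0.000799, adjusted p = 0.163). The dimmer *Parp3* probe gave 0.02 in that comparison, with overlap (-0.57 to 0.61, adjusted p = 0.977), and the mean of both probes 0.19 (adjusted p = 0.590). *Atm*-/- NR against WT NR gave 0.15 (-0.03 to 0.33, adjusted p = 0.9997). The 2 differences of *Atm*-/- veh, against WT veh and against *Atm*-/- NR, share the same 4 arrays.

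*Parp3* was the only member on the chromosome of *Atm*, chromosome 9, and it lay more than 20 Mb from it. RefSeq tables of promoters held an entry for 7 of the 9 genes, *Tnks* and *Bst1* being without one. The 250 bases before the start of *Parp3* are shown because it was the only gene called here that had an entry, and because a neighbour that runs the other way shares this stretch. That neighbour is *Rrp9*, whose product works in ribosome assembly and whose start lies 360 bases from that of *Parp3*. They lie at chr9:106476950-106477199 on the minus strand of GRCm38.p6, written 5′ to 3′ with the match to the CCAAT box in capitals.

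Parp3: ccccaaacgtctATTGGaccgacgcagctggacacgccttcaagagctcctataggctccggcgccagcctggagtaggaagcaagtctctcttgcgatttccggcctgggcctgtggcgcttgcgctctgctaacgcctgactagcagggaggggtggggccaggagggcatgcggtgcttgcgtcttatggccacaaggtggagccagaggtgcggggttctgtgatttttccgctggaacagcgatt

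The stretch holds 16 CG dinucleotides, where the median over 32851 RefSeq promoters cut the same way is 6. The CCAAT box, searched as CCAAT and ATTGG, was found 1 time here and in 33.8% of all promoters. The GC box, searched as GGGCGG and CCGCCC, was not found here, and 32.7% of promoters hold it. *Rrp9* itself ran from 10.50 to 10.88 on *Atm*-/- veh arrays and from 10.24 to 10.61 on *Atm*-/- NR arrays, a difference of -0.31 (SE 0.14) that did not pass (adjusted p = 0.178).

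*Tnks* encodes tankyrase 1, which attaches ADP-ribose to other proteins, among them proteins of the Wnt pathway. On the probe A_52_P127024 its log2 signal was 9.41, 9.17, 9.17 and 9.25 on the WT veh arrays and 9.31, 8.99, 8.92 and 9.20 on the WT NR arrays. It was 9.64, 9.39, 9.16 and 9.34 on the *Atm*-/- veh arrays and 8.88, 8.77, 8.96 and 8.81 on the *Atm*-/- NR arrays. The *Atm*-/- NR arrays lay below all 8 veh arrays and overlapped the WT NR arrays only at their highest value, and *Atm*-/- veh 1 was the highest array of all.

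NR against veh in *Atm*-/- mice gave -0.53 for *Tnks* (SE 0.11, 95% interval -0.76 to -0.29, adjusted p = 0.0151), and -0.34 averaged over both genotypes (SE 0.078, adjusted p = 0.0181). In WT mice it gave -0.15 (-0.39 to 0.09, adjusted p = 0.808). The difference between the NR differences of the genotypes was -0.38 (-0.71 to -0.04), with an unadjusted p of 0.0305 in limma and an adjusted p of 0.839. *Atm*-/- NR against WT NR gave -0.25 (unadjusted p = 0.0426, adjusted p = 0.947), and *Atm*-/- veh against WT veh gave 0.13 (-0.11 to 0.37, adjusted p = 0.610). The order of the group means was *Atm*-/- veh, WT veh, WT NR and *Atm*-/- NR, and each group overlapped its neighbour in that order.

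**Figure D1:**
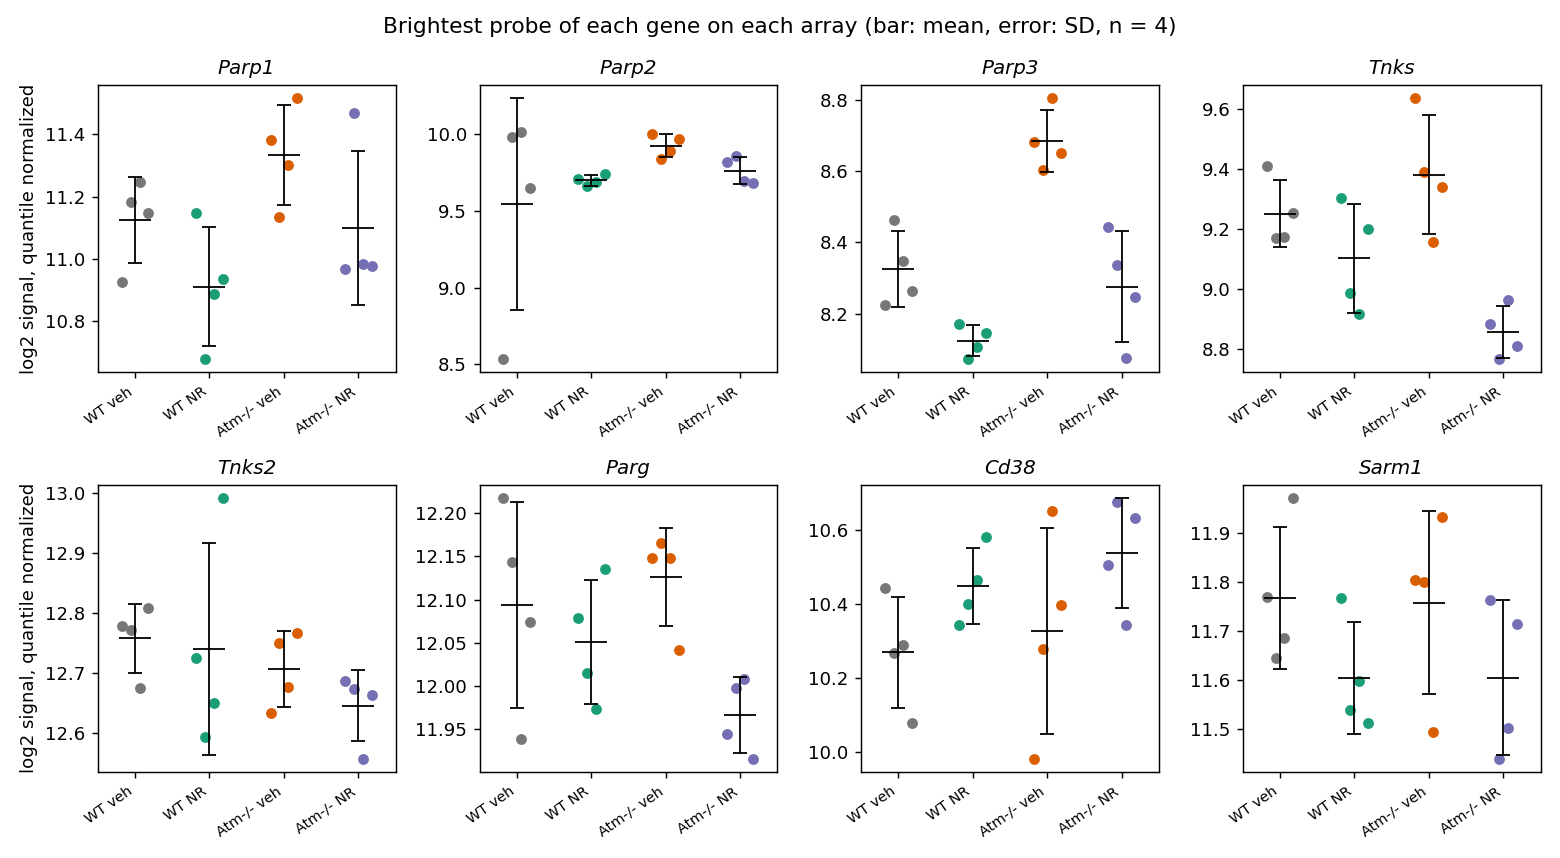
Each point is the quantile-normalized log2 signal of a gene's brightest probe on 1 array, for the 8 genes that could be tested and the 4 groups; horizontal bars are group means and error bars the SD (n = 4), and each panel has its own axis. The 4 *Atm*-/- veh arrays of *Parp3* (8.60 to 8.81) sit above all other arrays, and the *Atm*-/- NR arrays of *Tnks* (8.77 to 8.96) sit below all veh arrays.

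*Tnks2*, which encodes the second tankyrase, moved little. Its log2 signal ran from 12.68 to 12.81 on the WT veh arrays, 12.59 to 12.99 on the WT NR arrays, 12.63 to 12.77 on the *Atm*-/- veh arrays and 12.56 to 12.69 on the *Atm*-/- NR arrays. NR against veh in *Atm*-/- mice gave -0.06 (-0.24 to 0.12, adjusted p = 0.669).

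*Parg* encodes the enzyme that removes poly(ADP-ribose) chains. Its log2 signal was 12.15, 12.17, 12.15 and 12.04 on the *Atm*-/- veh arrays and 11.94, 12.00, 12.01 and 11.92 on the *Atm*-/- NR arrays. It ran from 11.94 to 12.22 on the WT veh arrays and from 11.97 to 12.14 on the WT NR arrays. The 2 *Atm*-/- groups did not overlap, while both WT groups spanned the gap between them. The *Atm*-/- NR difference was -0.16 (SE 0.071, unadjusted p = 0.0412) and did not pass in limma after adjustment (adjusted p = 0.163). In WT mice NR against veh gave -0.04 (-0.19 to 0.11, adjusted p = 0.936). *Parg* had the smallest spread within groups of the 8 genes, a residual SD of 0.078, which placed it at percentile 3.81 of all probes tested.

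*Cd38*, an NAD hydrolase of cell and organelle membranes, was the member whose mean was higher with NR in both genotypes. Its log2 signal was 10.45, 10.27, 10.29 and 10.08 on the WT veh arrays, and 10.34, 10.40, 10.47 and 10.58 on the WT NR arrays. It was 9.98, 10.28, 10.65 and 10.40 on the *Atm*-/- veh arrays, and 10.51, 10.68, 10.35 and 10.63 on the *Atm*-/- NR arrays. The groups overlapped in both genotypes, and *Atm*-/- veh 3, the array with the high *Alas2* signal, was the highest veh array. NR against veh gave 0.18 in WT mice (-0.10 to 0.45, adjusted p = 0.796) and 0.21 in *Atm*-/- mice (-0.06 to 0.49, adjusted p = 0.305). The second value was 0.097 without *Atm*-/- veh 1 and 0.32 without *Atm*-/- veh 3, and the first was 0.11 without WT veh 4. The average over both genotypes was 0.20 (0.00017 to 0.39), at an unadjusted p of 0.0498 and an adjusted p of 0.183.

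*Sarm1* encodes the NAD hydrolase that drives axon degeneration after injury. Its log2 signal ran from 11.65 to 11.97 on the WT veh arrays, 11.51 to 11.77 on the WT NR arrays, 11.49 to 11.93 on the *Atm*-/- veh arrays and 11.44 to 11.76 on the *Atm*-/- NR arrays. The ranges overlapped in all comparisons. NR against veh gave -0.16 in WT mice (-0.40 to 0.08, adjusted p = 0.782) and -0.15 in *Atm*-/- mice (-0.39 to 0.09, adjusted p = 0.397). The first was -0.095 without WT veh 4, and the second ran from -0.094 without *Atm*-/- veh 4 to -0.28 on the 12 arrays with Y-linked signal.

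*Bst1* encodes CD157, a relative of CD38 found mainly on blood and stromal cells, and its single probe was not well above background on 14 of 16 arrays. The 2 arrays where it was above background were WT veh 3, with a background-subtracted intensity of 30.0, and *Atm*-/- veh 3, with 145.1. The other arrays read 5.15 to 16.7. *Atm*-/- veh 3 was the array with the high *Alas2* signal, and no difference was tested for *Bst1*.

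**Figure D2:**
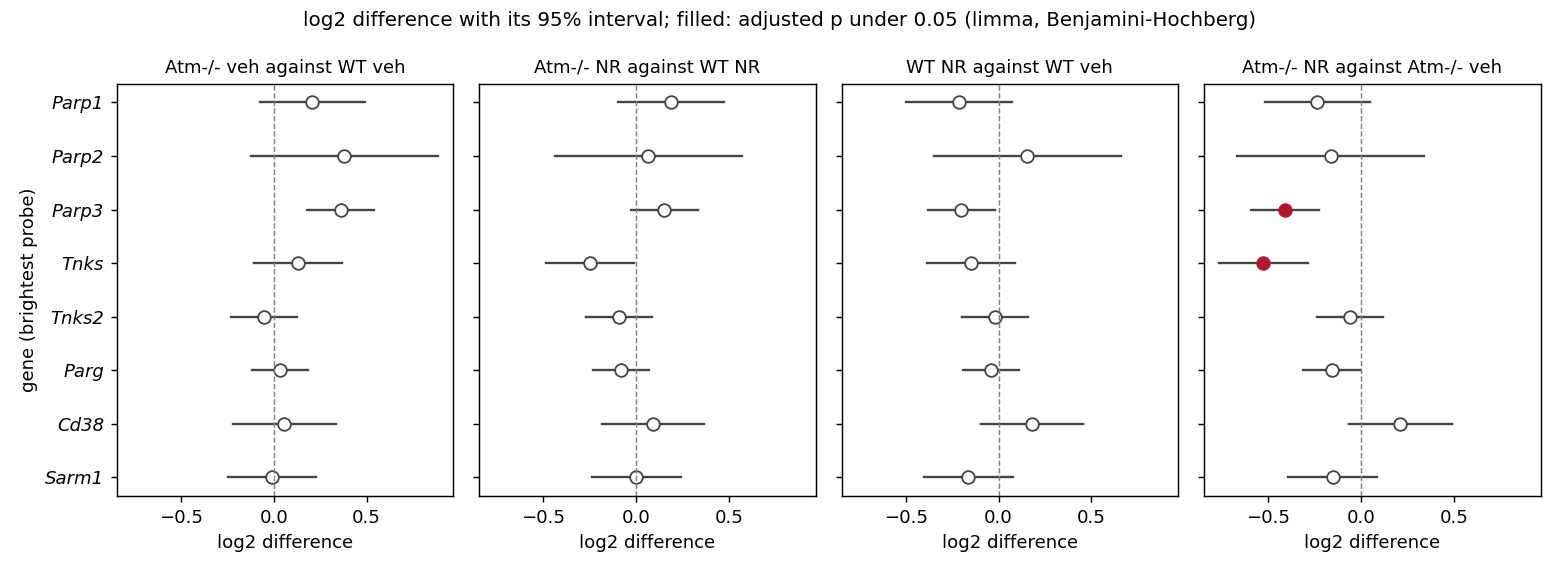
Points are log2 differences of the brightest probe of each of 8 genes in 4 comparisons, lines their 95% intervals, and filled points have an adjusted p under 0.05 in limma. Filled points appear for *Parp3* (-0.41) and *Tnks* (-0.53) in *Atm*-/- NR against *Atm*-/- veh.

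For *Parp3* and *Tnks*, a further tested probe was not called and gave a smaller difference or the opposite one. The dimmer *Parp3* probe ran from 7.503 to 8.06 on the *Atm*-/- veh arrays and from 6.75 to 8.07 on the *Atm*-/- NR arrays, and NR gave -0.10 there (-0.69 to 0.49, adjusted p = 0.847). The dimmer *Tnks* probe ran from 7.22 to 8.13 and from 7.48 to 7.78, and NR gave 0.08 (-0.33 to 0.50, adjusted p = 0.816), the opposite direction. The second *Parp3* probe thus had an interval that holds the difference of the first, and that of the second *Tnks* probe ended short of it. The difference between probes of a gene was not tested. The dimmer *Sarm1* probe gave -0.34 (-0.87 to 0.20, adjusted p = 0.399) and was well above background on 1 *Atm*-/- NR array. With the tested probes of a gene averaged, *Parp3* gave -0.25 (adjusted p = 0.332) and *Tnks* -0.22 (adjusted p = 0.301), and neither was called. The same holds for the NR difference averaged over genotypes, where the means of the probes gave -0.22 for *Parp3* (adjusted p = 0.234) and -0.15 for *Tnks* (adjusted p = 0.342).

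**Figure D3:**
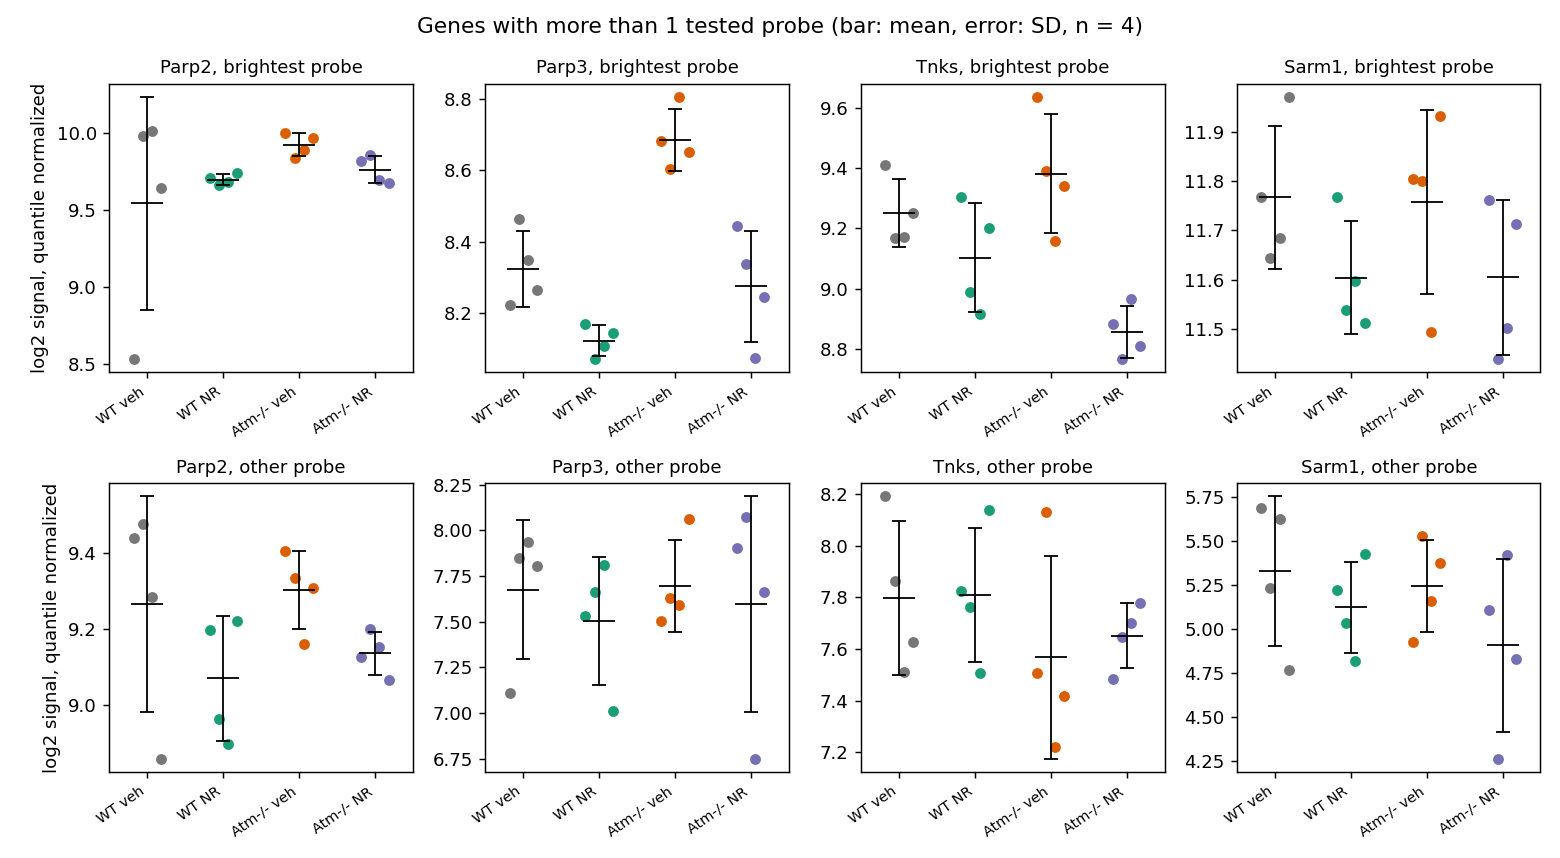
Quantile-normalized log2 signals per array of the 4 genes with 2 tested probes, the brightest probe above and the other below; bars are means and error bars the SD (n = 4). The *Atm*-/- NR arrays lie below the *Atm*-/- veh arrays on the brightest *Tnks* probe (8.77 to 8.96 against 9.16 to 9.64) and overlap them on the other (7.48 to 7.78 against 7.22 to 8.13).

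In *Atm*-/- NR against *Atm*-/- veh, 2 of 12 member probes were called, both lower, beside 9.04% of all probes called and 4.48% called lower. For the NR difference averaged over both genotypes the count was also 2 of 12, both lower, beside 10.8% called and 5.41% called lower. In the remaining comparisons 0 of 12 were called. The background there was 0.0537% for *Atm*-/- veh against WT veh and also 0.0537% for *Atm*-/- NR against WT NR. It was 0% for WT NR against WT veh, 0% for the difference of the NR differences and 0.201% for the genotype difference averaged over treatments. Read against these backgrounds, 2 calls among 12 probes are of the order of what the whole array showed, and are not a result about the group of genes.

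At an unadjusted p under 0.05, 3 member probes passed in *Atm*-/- NR against *Atm*-/- veh, where 27.3% of all probes did, and 4 for the averaged NR difference, where 27.4% did. In each of the other comparisons 1 member probe passed. The background there was 14.6% for the veh groups of both genotypes, 5.21% for their NR groups, 7.62% for WT NR against WT veh, 5.27% for the difference of the NR differences and 12.9% for the averaged genotype difference. The groups did not overlap for 3 member probes in *Atm*-/- NR against *Atm*-/- veh, those of *Parp3*, *Tnks* and *Parg*, beside 20.2% of all probes. They did not overlap for *Parp3* alone in *Atm*-/- veh against WT veh (7.6% of all probes) and in WT NR against WT veh (4.09%), and for 0 in *Atm*-/- NR against WT NR (4%). These shares of the members are close to those of the array as a whole.

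The member probes leaned to lower signals with NR. In *Atm*-/- mice 10 of 12 were lower, with a median difference of -0.16, while over all probes 50.1% were lower and the median was -0.00084. In WT mice 9 of 12 were lower, with a median of -0.16, beside 53.2% and -0.013 over all probes. Some of these probes measure the same gene and all come from the same arrays. For *Atm*-/- veh against WT veh the median over the member probes was 0.03, beside -0.0042 over all probes.

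Features of the arrays moved with the NR comparison. The number of probes well above background ran from 34945 to 37817 on the *Atm*-/- NR arrays and from 39134 to 41905 on the *Atm*-/- veh arrays, with no overlap, and its part in the falls of *Parp3* and *Tnks* was not tested. On the 12 arrays with Y-linked signal, *Parp3* gave -0.36 with NR in *Atm*-/- mice and was not called (adjusted p = 0.0967), while *Tnks* gave -0.59 and was (adjusted p = 0.0445). Averaged over genotypes on those arrays, *Parp3* gave -0.30 (adjusted p = 0.0570) and *Tnks* -0.44 (adjusted p = 0.0251). Without WT veh 4 and *Atm*-/- veh 3, both remained called in *Atm*-/- mice, with -0.37 for *Parp3* (adjusted p = 0.0273) and -0.60 for *Tnks* (adjusted p = 0.0141). Without *Atm*-/- veh 1, its highest array, *Tnks* gave -0.44 and missed the threshold (adjusted p = 0.0517). Median differences of the marker lists in *Atm*-/- NR against *Atm*-/- veh were 0.06 for 7 Purkinje cell markers, -0.05 for 7 granule cell markers, -0.02 for 7 markers of Bergmann glia and astrocytes, 0.15 for 6 of microglia and -0.13 for 5 of choroid plexus. They were -0.03 for 7 markers of oligodendrocytes, -0.00099 for 7 of endothelial cells and -0.07 for 7 of blood and perivascular cells. In *Atm*-/- veh against WT veh, the comparison in which *Parp3* gave 0.36, the 5 choroid plexus markers had a median of -2.06, and without WT veh 4 and *Atm*-/- veh 3 *Parp3* gave 0.30 (adjusted p = 0.252).

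**Figure D4:**
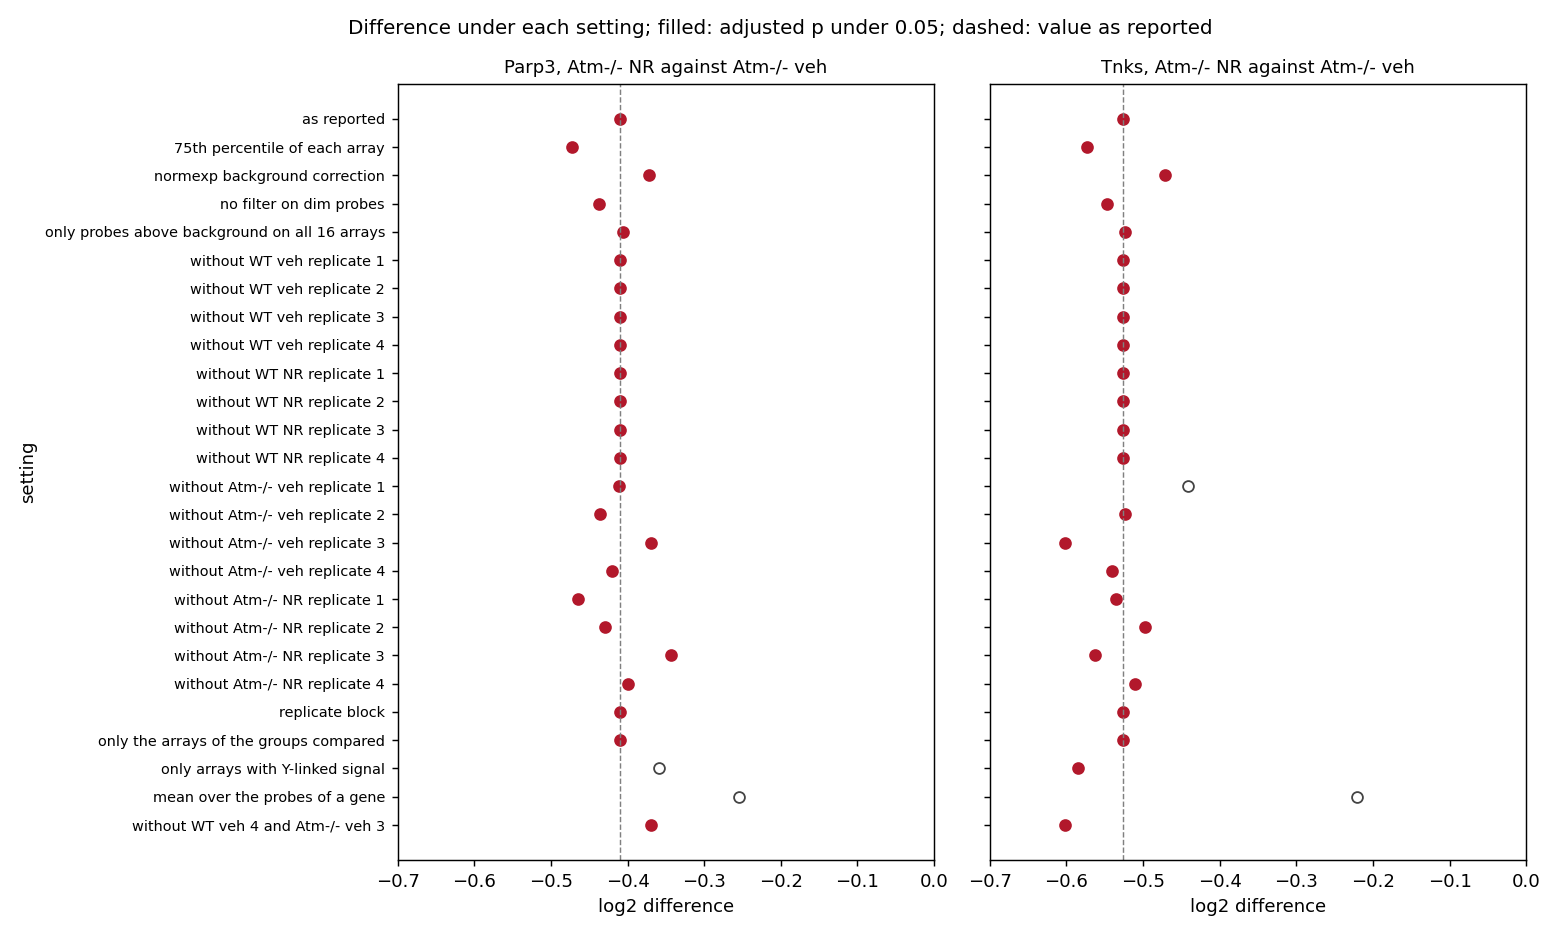
log2 difference of *Atm*-/- NR against *Atm*-/- veh for the brightest probes of *Parp3* and *Tnks*, as reported (dashed line) and under each alternative setting on the log2 scale; filled points have an adjusted p under 0.05. Open points are at -0.36 and -0.25 for *Parp3* and at -0.44 and -0.22 for *Tnks*.

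The genes around these enzymes were read from 9 lists of 89 genes, of which 82 were measured. With NR in *Atm*-/- mice, 11 of the 82 were called, 4 higher and 7 lower, which is 13.4% of them, beside 9.04% of all probes. Averaged over genotypes 14 were called, 5 higher and 9 lower (17.1%, beside 10.8% of all probes). These genes are each read by their brightest probe, the background by all probes. In the other comparisons 0 were called, and at an unadjusted p under 0.05 the numbers were 12 between the veh groups (background 14.6%), 1 between the NR groups (5.21%), 9 for NR in WT mice (7.62%), 6 for the difference of the NR differences (5.27%) and 9 for the averaged genotype difference (12.9%). The median difference over the 82 genes in *Atm*-/- NR against *Atm*-/- veh was 0.0056.

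Among the 12 partners of PARP1 and PARP2 in single-strand break repair, *Hpf1*, the factor that lets PARP1 modify serines, rose by 0.41 with NR in *Atm*-/- mice (SE 0.081, adjusted p = 0.0124), although its other probe gave -0.21. *Macroh2a1*, a histone variant that binds ADP-ribose, fell by 0.41 (SE 0.11, adjusted p = 0.0318), with its 3 other probes also lower. *Xrcc1*, the scaffold that PARP1 brings to breaks, fell by 0.24 in the average over genotypes (SE 0.061, adjusted p = 0.0276). The other members of that list did not pass in either NR comparison.

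Of 11 tankyrase partners and substrates, 2 fell in *Atm*-/- mice. *Tnks1bp1*, which binds tankyrase, fell by 0.44 (SE 0.11, adjusted p = 0.0260), and *Amotl2*, an angiomotin family member, by 0.51 (SE 0.12, adjusted p = 0.0212). The median over that list was 0.09, on the other side of 0. Of the 11 other PARP family members, *Parp12* was called in the average over genotypes (-0.50, SE 0.12, adjusted p = 0.0206) and 0 in *Atm*-/- mice alone.

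The 10 genes for removal of ADP-ribose gave 0 calls in any comparison, and the single measured ecto-ADP-ribosyltransferase gave none. Of 5 calcium channels that answer to products of NAD hydrolases, *Tpcn2*, the lysosomal channel opened by NAADP, fell by 0.52 in *Atm*-/- mice (SE 0.12, adjusted p = 0.0187). It also had the smallest p of the lists in WT NR against WT veh, at -0.42, where it did not pass (SE 0.12, adjusted p = 0.494).

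Around *Sarm1*, 4 of 10 genes were called in *Atm*-/- mice, 2 in each direction, beside 9.04% of all probes. *Nmnat2*, which makes NAD+ in axons, fell by 0.43 (SE 0.10, adjusted p = 0.0249), and *Map2k7*, a kinase upstream of JNK, fell by 0.40 (SE 0.076, adjusted p = 0.0114). The JNK genes *Mapk8* and *Mapk10* rose by 0.38 (SE 0.081, adjusted p = 0.0165) and 0.51 (SE 0.096, adjusted p = 0.0115). Another *Mapk8* probe gave -0.07, while the other *Mapk10* probe gave 0.11. *Nmnat2* also had the smallest p of the lists in *Atm*-/- veh against WT veh, at 0.45 (SE 0.10, adjusted p = 0.163).

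Of 15 genes of NAD synthesis and salvage, *Slc12a8*, a proposed transporter of nicotinamide mononucleotide, was called in the average over genotypes, at 0.31 (SE 0.081, adjusted p = 0.0288), and 0 in *Atm*-/- mice alone. *Qprt*, an enzyme of NAD+ synthesis from tryptophan, had the smallest p of the lists in *Atm*-/- NR against WT NR, at 0.44 (SE 0.17, adjusted p = 0.886). Of the 7 sirtuins, which share NAD+ as a substrate with the PARPs, the mitochondrial *Sirt3* rose by 0.42 (SE 0.12, adjusted p = 0.0427) and the nuclear *Sirt6* fell by 0.47 (SE 0.090, adjusted p = 0.0114) in *Atm*-/- mice. The other *Sirt6* probe gave -0.68.

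**Figure D5:**
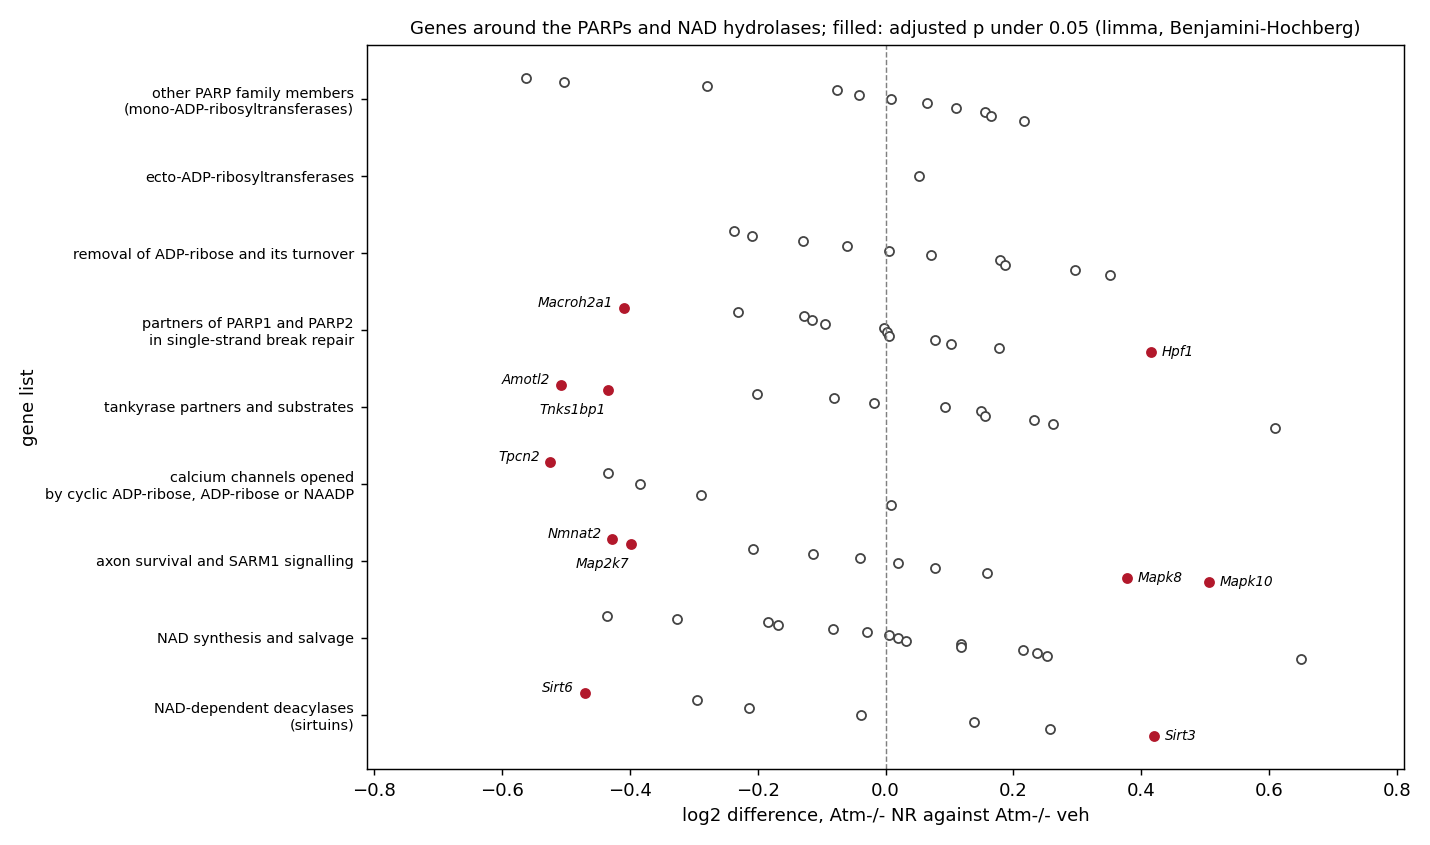
Each point is the log2 difference of *Atm*-/- NR against *Atm*-/- veh for the brightest probe of 1 of 82 genes, by list; filled, named points have an adjusted p under 0.05 in limma. The 11 called genes lie on both sides of 0, 4 higher and 7 lower.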

How the data were processed

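Groups and replicate numbers came from the sample labels, which describe biological replicates. Scanner files from Agilent Feature Extraction (version 12.0.3.1) were deposited by the authors, with a background-subtracted intensity per spot and no scaling across arrays. The authors also deposited a score for each spot, a z-score made after quantile normalization, which served as an alternative. Probes were named through their accessions with RefSeq genes of GRCm38.p6, a build used for names, order and promoters only. Spots of a probe were averaged after quantile normalization of log2 intensities. A probe passed the filter on dim probes if, in some group, each of the 4 arrays had at least 0.5 of its spots well above background, which left 38041. Spots flagged as outliers were then left out, and the 37253 probes that still had a value on every array were tested. The number of arrays limits the precision.

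limma 3.58.1 (R 4.3.3, package data.table, version 1.17.8) was fitted over all 16 arrays with a mean per group (12 residual degrees of freedom) after it was tested on simulated data. The members, gene lists and tests were chosen with earlier results of these data known. Genes named outside the members were those called and, in each of the 4 comparisons of groups, the one with the smallest p over the lists. Of the listed names, *Art1*, *Art2a*, *Art2b*, *Art4*, *Art5*, *Ryr3* and *Fbxo45* had no tested probe. For each member, the 3 genes with the highest correlation over the arrays were also named. Comparisons share control arrays. Alternatives were the scaling (percentile 75), normexp with an offset of 50, the filter, the z-scores, each array left out, the replicate block, the slide as a block, the averaging of probes, only the groups compared, only arrays with Y-linked signal, the methods' t-test, and, chosen after seeing the data, 14 arrays without WT veh 4 and *Atm*-/- veh 3.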

Additional observations from a re-analysis of the deposited data

Results flagged for a closer look

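In 5 of 56 tests of 1 group of 4 arrays on 1 member probe, a single array lay far from the other 3 by Dixon's test, which is 8.93% where chance gives about 1 in 20. *Parp1* on *Atm*-/- NR 2 was at 11.47, above the others of its group at 10.97 to 10.98, and without that array the NR difference in *Atm*-/- mice was -0.36 (adjusted p = 0.0999). *Parg* on *Atm*-/- veh 4 was at 12.04, below the others. The dimmer *Parp3* probe on WT veh 1 was at 7.11, below the others of its group. The remaining ones were at probes that were not tested for differences: the third *Parp3* probe on *Atm*-/- NR 4 at 4.60, and *Bst1* on *Atm*-/- NR 2 at 2.70, both near the background.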

How the results depend on the processing

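With the probes of a gene averaged, neither *Parp3* nor *Tnks* was called in either NR comparison (adjusted p in limma 0.234 to 0.342). Under the settings that kept probes apart, the 7 counts of called member probes were close to those reported, except as follows. In *Atm*-/- NR against *Atm*-/- veh the count of 2 became 1 on the 12 arrays with Y-linked signal and 5 with the methods' t-test unadjusted, and ran from 1 (without *Atm*-/- veh replicate 1) to 2 when each array was left out. For the NR difference averaged over genotypes it became 1 on the arrays with Y-linked signal and 3 without WT veh replicate 4, also when *Atm*-/- veh 3 was left out as well. With the methods' t-test unadjusted, the counts of 0 between the veh groups, between the NR groups and for NR in WT mice became 1 each. Shares of all probes under that t-test are not given here. At an unadjusted p under 0.05 in limma they were 14.6%, 5.21% and 7.62% in these comparisons, and 27.3% in *Atm*-/- NR against *Atm*-/- veh. The methods also set limits on the z-ratio, the false discovery rate and an ANOVA, so these t-test counts are not those of the methods. With the replicate block, the counts were 2 in *Atm*-/- NR against *Atm*-/- veh, 2 averaged over genotypes and 0 elsewhere; equal numbers share no label of a batch, 6 of 24 pairs of equal number deviated together (r over 0.1), and 2 of 16 arrays were nearest to their own number. With the probes of a gene averaged, *Tnks* in *Atm*-/- veh against WT veh turned to -0.050 and *Parp2* in WT NR against WT veh to -0.020; *Parp2* ran from -0.18 to 0.31 over the 26 settings, and was at -0.18 without WT veh replicate 1. The causes of these changes were not tested, and some of these settings leave fewer arrays. The added setting without WT veh 4 and *Atm*-/- veh 3, chosen after the data were seen, changed no other count. Genotype and slide, and NR and slide row, cannot be told apart, and probes near the background, such as that of *Bst1*, give no difference.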

Other observations

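For each member, the 3 genes whose brightest probe followed it most closely over the 16 arrays are given as a description, since the arrays share their groups, slides and signal distributions. *Parp3* was followed by *Pnrc1* (Pearson r = 0.94), *Cdca4* (0.91) and *Vrk3* (0.91), and *Tnks* by *Sipa1l3* (0.94), *Nrd1* (0.94) and *Tnpo2* (0.93). *Parp1* was followed by *Becn1*, *Qsox2* and *Armc6* (0.84 to 0.87), *Parp2* by *Klhdc10*, *Scfd1* and *Psmc4* (0.96), and *Tnks2* by *6430550D23Rik*, *1700029J03Rik* and *Gfm2* (0.84 to 0.89). The brightest *Parp2* probe read 8.54 on WT veh 1 and 9.65 to 10.01 on the other arrays. The part of that array in the r values of *Parp2* was not tested. *Parg* was followed by *Amotl2*, *Nploc4* and *Cpsf1* (0.89), *Cd38* by *Gtf2e2*, *Stk38l* and *Pitpna* (0.82 to 0.83), and *Sarm1* by *Map3k9*, *Ppdpf* and *Mgll* (0.86 to 0.89).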
